A study of Mus musculus with 12 samples.

Results

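Collagens are the proteins whose symbols read Col, a type number, the letter a and a chain number, and they were followed here in the medial prefrontal cortex (mPFC) of adult male mice of the C57BL/6 strain, wild type according to the labels. The collagen genes were taken as every gene of this symbol form that the array annotation pairs with a probe set naming that gene alone, and the brightest probe set over all 12 arrays stood for the gene. That gave 44 collagen genes of 17656 measured genes. The homecage (HC) group held 6 mice that lived in groups, and the chronic social defeat (CSD) group held 6 mice, each of which shared the cage of a dominant CD-1 male across a perforated divider and met it in a short daily bout over many days. Tissue was taken the day after the last defeat from mice perfused with saline, with the forceps minor, a white matter tract, as the border of the dissection, and the sources used here give no exact age. CSD mice had been screened by behaviour before the arrays were run. Each mouse gave 1 Affymetrix Mouse Gene ST array, and the values are log2 values made with the robust multi-array average method (RMA), so that a difference of 1 is a doubling.

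Collagens are built from alpha chains that wind around each other into a triple helix. The chains are made in the endoplasmic reticulum, where prolines and lysines are hydroxylated, and fibrillar chains are trimmed and crosslinked outside the cell. In the brain, fibrillar collagens lie mainly in the meninges and around larger vessels, type IV collagen forms the meshwork of the vascular basement membrane and of the pial surface, and type VI collagen makes beaded filaments next to basement membranes. Several members of the family are better known elsewhere, among them the cartilage chains Col2a1, Col9a1, Col10a1 and Col11a2 and the skin chains Col7a1 and Col17a1, and Col19a1 and Col25a1 are known from neurons. The name "collagens of vessels and meninges" therefore covers only some of the genes that the symbol rule takes in, and 14 of the 44 were listed as known from vessels and meninges (Col1a1, Col1a2, Col3a1, Col4a1, Col4a2, Col5a1, Col5a2, Col6a1, Col6a2, Col6a3, Col8a1, Col13a1, Col15a1 and Col18a1).

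The start regions of 2 gene pairs are shown because their chains are assembled together and their values are compared below: Col4a1 with Col4a2, and Col6a1 with Col6a2. The windows are those of RefSeq on the mouse build GRCm38.p6, each 300 bases around the start of the gene and written 5′ to 3′ on the strand of the gene. Col4a1 (chr8:11198423-11312889) and Col4a2 (chr8:11312805-11449287) run head to head, and the annotated genes overlap by 85 bases. The windows chr8:11312777-11313076 on the minus strand and chr8:11312555-11312854 on the plus strand share 78 bases, which are in capitals in both.
Col4a1: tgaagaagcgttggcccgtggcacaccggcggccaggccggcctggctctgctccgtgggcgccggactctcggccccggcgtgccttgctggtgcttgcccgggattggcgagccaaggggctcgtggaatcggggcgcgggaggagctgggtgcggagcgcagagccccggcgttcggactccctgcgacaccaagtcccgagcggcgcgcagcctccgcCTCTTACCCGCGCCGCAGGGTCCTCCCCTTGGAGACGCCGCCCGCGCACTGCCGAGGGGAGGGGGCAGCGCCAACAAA
Col4a2: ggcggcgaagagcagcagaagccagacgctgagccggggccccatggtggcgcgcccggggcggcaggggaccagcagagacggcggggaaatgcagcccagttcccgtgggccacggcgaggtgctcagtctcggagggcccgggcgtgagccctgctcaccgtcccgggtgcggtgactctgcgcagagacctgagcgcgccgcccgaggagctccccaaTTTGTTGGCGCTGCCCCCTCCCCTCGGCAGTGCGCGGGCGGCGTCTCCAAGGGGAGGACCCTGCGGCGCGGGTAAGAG
Col6a1 (chr10:76708792-76726044) and Col6a2 (chr10:76595756-76623630) lie on the same chromosome, both on the minus strand, with 85161 bases between them. Their windows are chr10:76725995-76726294 and chr10:76623581-76623880, and capitals mark the letters of the GC box, GGGCGG, on either strand.
Col6a1: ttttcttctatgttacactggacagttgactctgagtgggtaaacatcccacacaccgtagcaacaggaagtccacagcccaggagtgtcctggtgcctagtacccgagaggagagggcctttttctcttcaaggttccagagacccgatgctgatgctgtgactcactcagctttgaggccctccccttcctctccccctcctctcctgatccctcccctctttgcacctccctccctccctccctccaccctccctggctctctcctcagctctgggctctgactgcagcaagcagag
Col6a2: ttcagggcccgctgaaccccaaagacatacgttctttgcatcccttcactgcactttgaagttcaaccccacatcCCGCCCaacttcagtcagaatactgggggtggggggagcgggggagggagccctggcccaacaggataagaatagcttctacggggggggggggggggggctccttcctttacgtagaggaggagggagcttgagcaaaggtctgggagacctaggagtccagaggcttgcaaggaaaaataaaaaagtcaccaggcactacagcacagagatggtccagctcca
The GC box letters occurred 0 times in the window of Col6a1 and 1 time in that of Col6a2, there on the opposite strand. Over the family, 38 windows of 35 collagen genes were found in the table, and 60.5% of them held GGGCGG on either strand, against 35.7% of all 32851 windows. CCAAT was in 34.2% of the collagen windows and 37.4% of all windows, and TATAAA in 13.2% and 13.6%. The median GC content was 59.8% over the collagen windows and 52.7% over all windows. Matches are letters in a window and were counted whether or not they overlapped another match.

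All 44 collagen genes were above the noise level of 5.75 on all 12 arrays, as were 16607 of the 17656 measured genes. Passing a level that nearly all genes pass does not show that a gene is expressed in this tissue. Whether each collagen gene, the cartilage and skin chains among them, is expressed in the mPFC was not tested. Of the arrays, HC 2 had the highest median value (7.69, against 7.50 to 7.63 on the others), and HC 6 correlated least with its own group (median r of 0.991, against 0.992 to 0.996). The collagen genes followed these 2 arrays. Within HC, 33 of the 44 had their highest value on HC 2, and over all 12 arrays 35 had their lowest value on HC 6. Counts over the family and some other results are therefore also given without these arrays. Class medians and most single genes are given over all 12 arrays only, and they can depend on both. The median log2 fold change of the collagen genes was 0.095 over all arrays, 0.053 without HC 6 and 0.12 without HC 2. For Col18a1 these values were 0.10, 0.035 and 0.15. In bulk tissue, fewer cells of a type and less RNA per cell cannot be told apart.

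Almost the whole family had a slightly higher mean in CSD than in HC mice, and no collagen gene passed the test. The mean was higher in CSD for 41 of 44 genes (93.2%, against 42.9% of all measured genes), and the median log2 fold change was 0.095, against -0.01 over all measured genes. Of the genes within the same range of mean values, 48.5% had a higher mean in CSD. The 44 genes varied together across mice (median Pearson r of 0.759 over their pairs), so they are not 44 separate observations. The differences were small: the log2 fold change ran from -0.09 for Col25a1 to 0.22 for Col6a1, a fold of 1.16. With a limit of 0.05 on the adjusted p and of 1.2 on the fold, limma called 0 of 29838 probe sets (0%), the methods' t-test likewise called 0, and 406 had an unadjusted limma p under 0.05 at that fold. The smallest adjusted p among collagen genes was 0.4 with limma. At an unadjusted p under 0.05, 3 collagen genes were higher in CSD (Col6a1, Col6a2 and Col24a1), against 1.89% of all measured genes, and 0 were lower, against 6.52%. In no collagen gene did all CSD arrays lie above all HC arrays, which held for 0.0793% of all genes, or below them, which held for 0.935%. For 41 of the 44 genes the 95% interval of the difference included 0, and over all 44 the intervals reached from a fold of 0.831 to a fold of 1.3.

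The number of genes under an unadjusted p of 0.05 depended on single arrays. Without HC 2 it was 17, and all measured genes moved as well: 5.49% of them were then higher at that p, and 55.9% had a higher mean in CSD, against 1.89% and 42.9% over all arrays. Without CSD 2 it was 11 (2.14% of all genes) and without HC 5 it was 5 (1.73%), while it was 1 without HC 4 (1.38%), HC 6 (2.2%) or CSD 10 (1.52%). Without HC 2 and HC 6 together it was 7 (5.11% of all genes), with a median log2 fold change of 0.081 for the collagen genes and 0.013 for all genes. The number of genes with a lower mean in CSD was 3 over all arrays, 5 without HC 6, and 1 without HC 2, without CSD 6, or without HC 2 and HC 6 together.

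**Figure D1:**
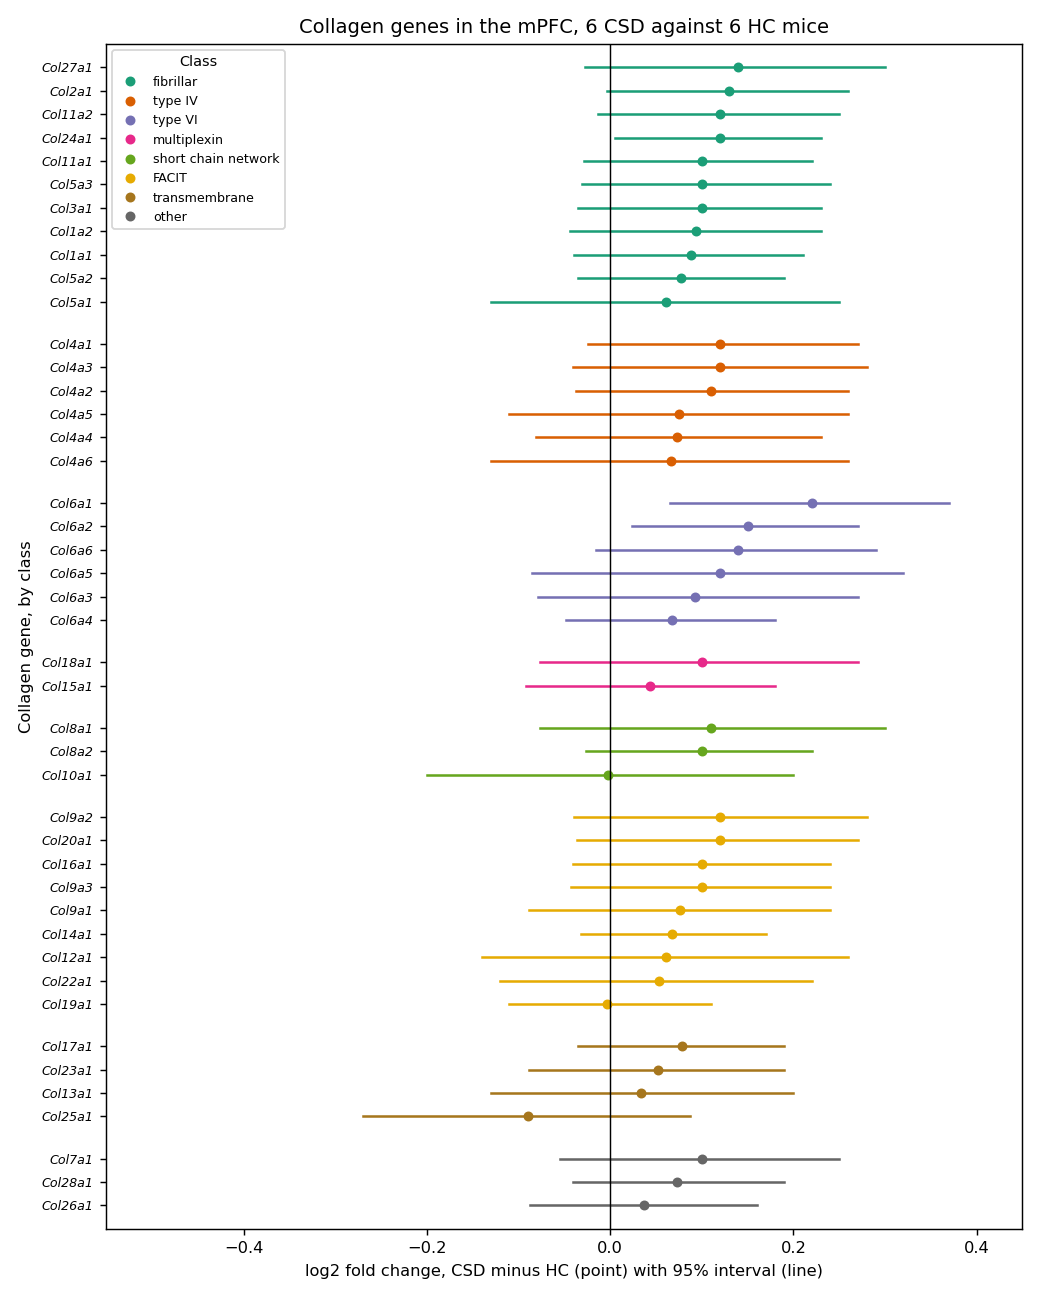
Log2 fold change of each of the 44 collagen genes (x axis, CSD minus HC, 6 mice a group), grouped by class on the y axis, with the 95% interval from limma as a line. Of the points, 41 lie right of 0, and 41 of the lines cross 0.

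Type VI collagen had the largest class median (0.13), and all 6 of its chains had a higher mean in CSD. Col6a1 and Col6a2 encode the alpha 1 and alpha 2 chains of the type VI monomer, and Col6a3 the third, longer chain. Col6a1 lay at 8.80 at the lowest, 8.93 at the median and 9.11 at the highest in HC, and at 9.01, 9.11 and 9.37 in CSD. The groups overlapped, with 3 of 6 CSD arrays above every HC array and 6 of 6 above the HC median. The log2 fold change of Col6a1 was 0.22 (SE 0.071, 95% interval 0.065 to 0.37, n = 6 a group), with an adjusted limma p of 0.4 and an exact two-sided permutation p of 0.0152. Its unadjusted limma p of 0.00904 lay between 0.00346 and 0.0227 when any single array was left out.

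Col6a2 lay at 8.01, 8.09 and 8.36 in HC (lowest, median and highest) and at 8.17, 8.26 and 8.33 in CSD. The highest value of all was on HC 2, and the other HC arrays were below every CSD array. The log2 fold change was 0.15 (SE 0.057, 95% interval 0.024 to 0.27, n = 6 a group), with an adjusted limma p of 0.494 and an exact permutation p of 0.0325. Its unadjusted limma p was 0.0232 over all arrays, 0.000337 without HC 2 and at most 0.0523, without HC 4. Col6a3 had a log2 fold change of 0.093 with an interval from -0.079 to 0.27. Its HC values ran from 6.93 to 7.41 around a median of 7.29, and its CSD values from 7.22 to 7.40 around 7.35, so that the CSD arrays lay within the HC range. The alternative chains Col6a4, Col6a5 and Col6a6, which are related to Col6a3, had log2 fold changes of 0.068, 0.12 and 0.14. A second probe set of Col6a6 had a log2 fold change of 0.054 (unadjusted limma p of 0.408), against 0.14 (p of 0.0738) for the brighter one.

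Type IV collagen had a class median of 0.094, and all 6 chains had a higher mean in CSD. Col4a1 and Col4a2 make the common heterotrimer of vascular basement membranes, 2 chains of the former to 1 of the latter. Col4a1 lay at 7.77, 7.92 and 8.08 in HC (lowest, median and highest) and at 7.88, 8.06 and 8.19 in CSD, and 2 CSD arrays were above every HC array. The log2 fold change was 0.12 (SE 0.068, 95% interval -0.024 to 0.27), with an adjusted limma p of 0.688 and an exact permutation p of 0.13. Col4a2 lay at 7.63, 7.80 and 8.05 in HC and at 7.74, 7.97 and 8.05 in CSD, with no CSD array above every HC array. Its log2 fold change was 0.11 (SE 0.07, 95% interval -0.037 to 0.26), with an adjusted limma p of 0.735. The 4 other chains, known from kidney, lung and eye basement membranes, had log2 fold changes of 0.12 for Col4a3, 0.073 for Col4a4, 0.075 for Col4a5 and 0.066 for Col4a6. Col15a1 and Col18a1, the multiplexins, are basement membrane proteoglycans, and the end of Col18a1 is released as endostatin. Col15a1 had a log2 fold change of 0.044 (95% interval -0.092 to 0.18) and Col18a1 one of 0.10 (-0.076 to 0.27).

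**Figure D2:**
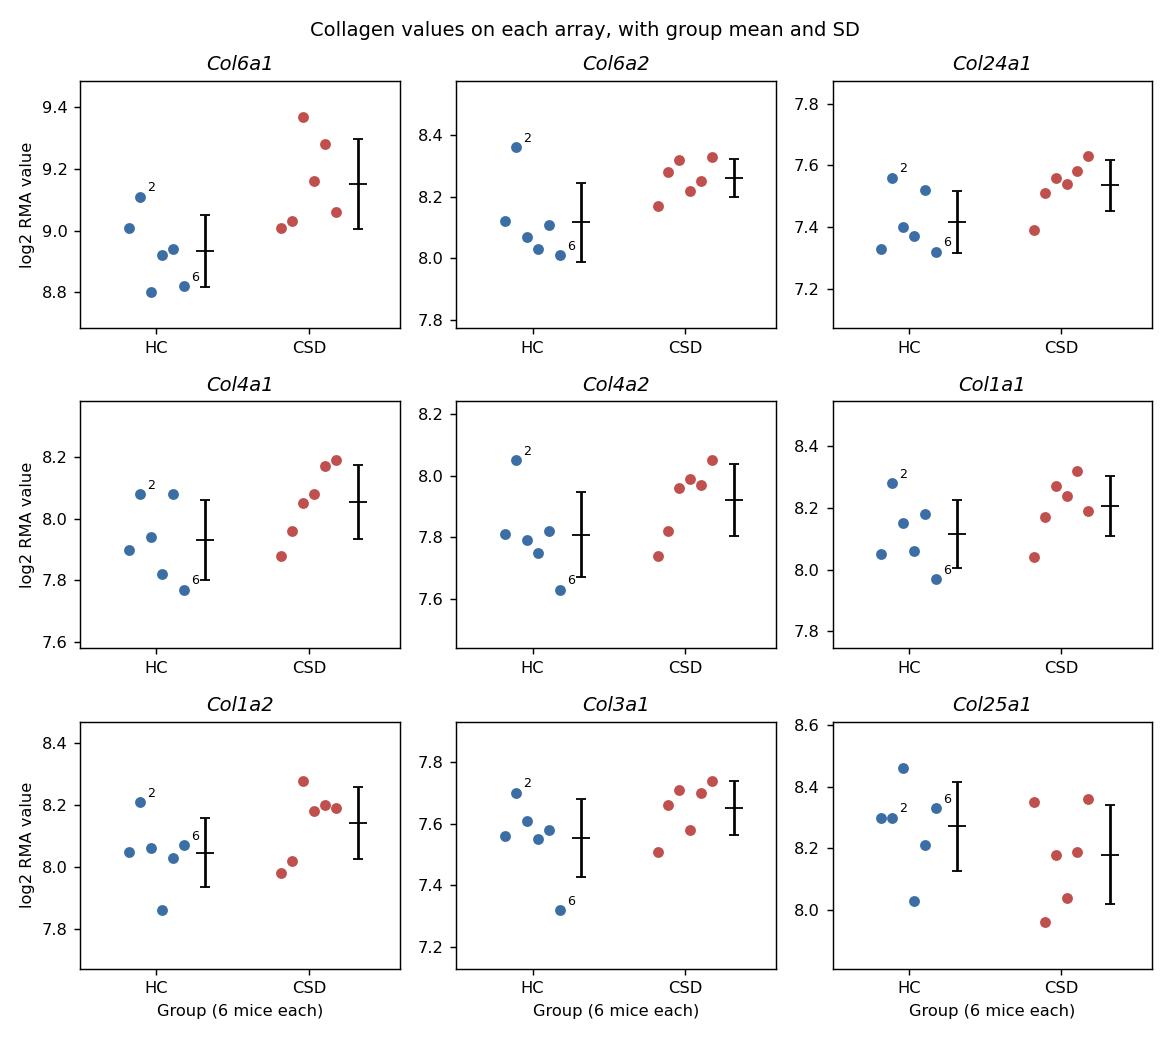
Log2 RMA values (y axis, each panel spanning 0.8 log2 units) of 9 collagen genes on the 6 HC and 6 CSD arrays, 1 point a mouse, with the group mean and SD in black and arrays HC 2 and HC 6 numbered. The groups overlap in every panel, and HC 2 is the highest HC array, alone or in a near tie, in all panels but Col25a1.

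The fibrillar collagens had a class median of 0.10, and all 11 had a higher mean in CSD. Col1a1 and Col1a2 encode the chains of type I collagen, the main collagen of the dura and of vessel adventitia. Col1a1 lay at 7.97, 8.11 and 8.28 in HC (lowest, median and highest) and at 8.04, 8.21 and 8.32 in CSD, a log2 fold change of 0.088 (95% interval -0.039 to 0.21). Col1a2 lay at 7.86, 8.06 and 8.21 in HC and at 7.98, 8.18 and 8.28 in CSD, a log2 fold change of 0.094 (95% interval -0.044 to 0.23). For both, 1 CSD array was above every HC array, and the adjusted limma p was 0.763 and 0.765. Col3a1, the type III chain of distensible vessel walls, had a log2 fold change of 0.10 (95% interval -0.035 to 0.23). It ran from 7.32 to 7.70 in HC and from 7.51 to 7.74 in CSD, and HC 6 held the lowest value. Col5a1 and Col5a2, which set the diameter of type I fibrils, had log2 fold changes of 0.061 (-0.13 to 0.25) and 0.077 (-0.035 to 0.19).

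Among the other fibrillar chains, Col24a1 (chr3:145292472-145552013), a minor fibrillar collagen known from bone and cornea, had an unadjusted limma p of 0.0422. It lay at 7.32, 7.38 and 7.56 in HC (lowest, median and highest) and at 7.39, 7.55 and 7.63 in CSD, and 3 CSD arrays were above every HC array. The log2 fold change was 0.12 (SE 0.053, 95% interval 0.0049 to 0.23), with an adjusted limma p of 0.568 and an exact permutation p of 0.0476. Its unadjusted p was above 0.05 when any of 9 arrays was left out, up to 0.0936 without CSD 10. The cartilage chain Col2a1 followed with a log2 fold change of 0.13 (95% interval -0.0037 to 0.26, adjusted limma p of 0.611), with 3 CSD arrays above every HC array. Col27a1, another cartilage chain, had the largest log2 fold change of the class at 0.14, with an interval from -0.027 to 0.30.

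In the remaining classes the medians were 0.10 for the 3 short chain network collagens, 0.076 for the 9 FACIT collagens (which sit on the surface of fibrils), 0.043 for the 4 transmembrane collagens and 0.073 for the 3 others. Col8a1 and Col8a2, network formers of vessel walls and of Descemet's membrane, had log2 fold changes of 0.11 (95% interval -0.077 to 0.30) and 0.10 (-0.026 to 0.22). In Col8a1, 3 CSD arrays were above every HC array and the other 3 were below the HC median of 6.79. The FACIT chains with the smallest p were Col20a1 at 0.12 (-0.036 to 0.27) and Col9a2 at 0.12 (-0.039 to 0.28). Col17a1, the hemidesmosome collagen of skin, had a log2 fold change of 0.078 (-0.035 to 0.19). Col13a1, a membrane collagen of the neuromuscular junction and of vessels, had one of 0.034 (-0.13 to 0.20). Col7a1, which makes anchoring fibrils of skin, had a log2 fold change of 0.10 (-0.055 to 0.25), and Col28a1, a beaded filament collagen of peripheral nerve, one of 0.073 (-0.041 to 0.19).

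The 3 genes with a lower mean in CSD were Col25a1, Col19a1 and Col10a1. Col25a1 encodes a membrane collagen of neurons whose shed part is found in amyloid plaques. It lay at 8.03, 8.30 and 8.46 in HC (lowest, median and highest) and at 7.96, 8.19 and 8.36 in CSD, a log2 fold change of -0.09 (95% interval -0.27 to 0.087). Col19a1, a collagen of interneurons that acts at developing synapses, had a log2 fold change of -0.0038 (-0.11 to 0.11), and the hypertrophic cartilage chain Col10a1 one of -0.0028 (-0.20 to 0.20). All 3 differences were within the spread between mice.

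The collagen genes varied together from mouse to mouse, and they did so across classes. The median Pearson r over the 12 arrays was 0.759 for the 946 pairs of collagen genes, and 90.6% of the pairs had an r above 0. It was 0.793 for the 134 pairs of the same class and 0.755 for the 812 pairs of different classes. Between collagen genes and all other genes the median r was 0.108, and between collagen genes and the other genes within the same range of mean values (6.20 to 9.04) it was 0.268. Col2a1, a cartilage chain, and Col3a1, a vessel chain, had an r of 0.957. These r values are descriptions over the same 12 arrays, whose shared shifts enter every pair. The median r over the collagen pairs was 0.589 without HC 2 and HC 6, 0.738 for deviations from the group means, 0.808 in HC alone and 0.646 in CSD alone. After the median shift of the genes in the same range was subtracted from each array, it was 0.652.

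Only 3 genes had a median r with the other collagens below 0.4. These were Col25a1 (-0.126), Col12a1 (-0.121), a FACIT collagen of tendon and fascia, and Col19a1 (0.0282). Col1a2 was among the next lowest at 0.519, while Col7a1 was the highest at 0.89.

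**Figure D3:**
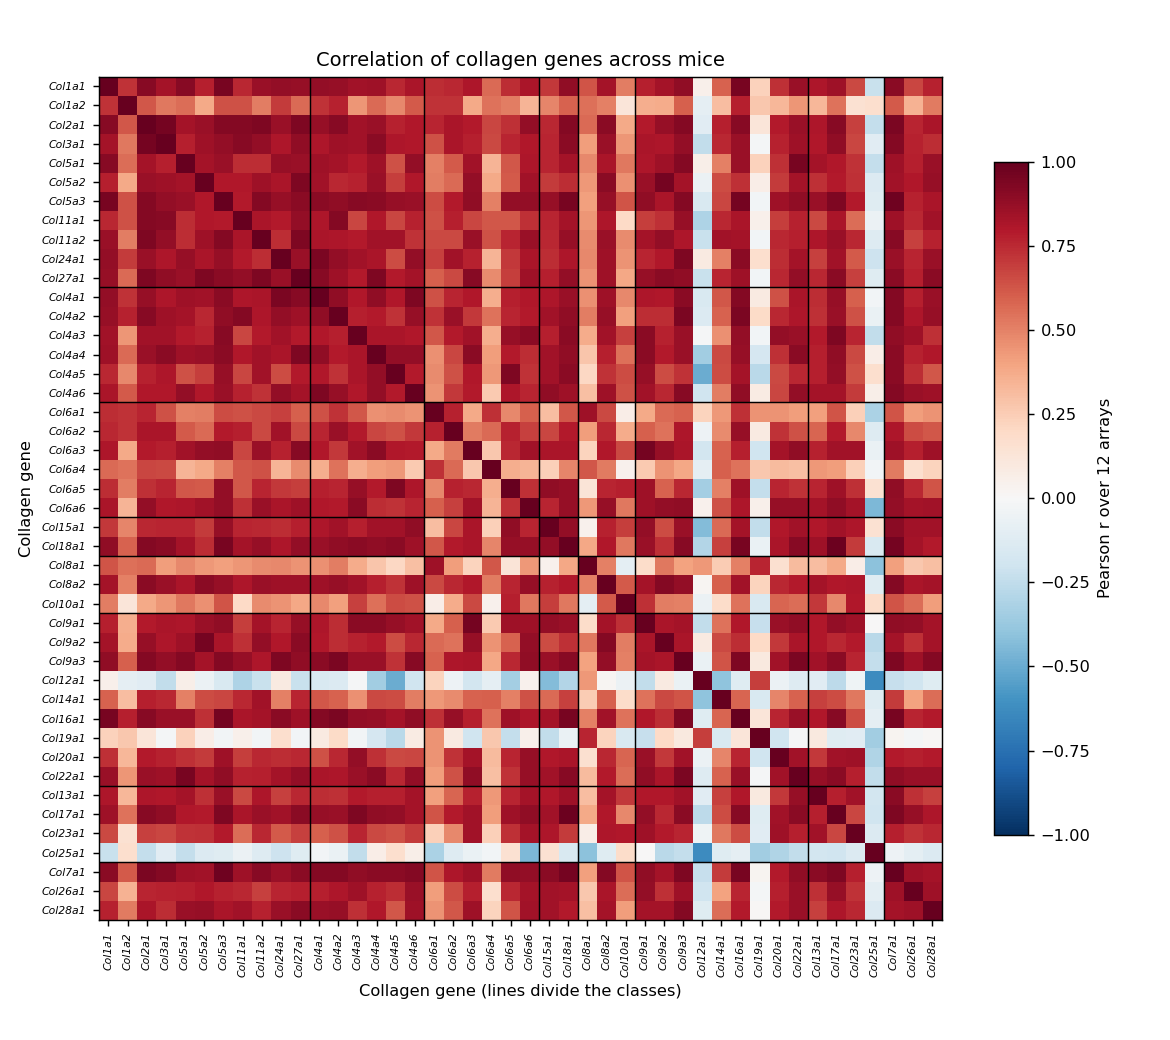
Pearson r over 12 arrays for every pair of the 44 collagen genes, with both axes ordered by class and black lines between classes. Most of the field is above 0 regardless of class (90.6% of pairs), and Col12a1, Col19a1 and Col25a1 stand out as pale or blue stripes.

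The mean deviation of the 44 collagen genes from their 12-array means gives this shared level for each mouse. On the log2 scale it was -0.08, 0.12, -0.02, -0.07, 0.02 and -0.23 for HC 1 to HC 6, and -0.07, 0.00, 0.06, 0.06, 0.12 and 0.10 for CSD 2, 6, 7, 8, 9 and 10. The groups overlapped: HC 2 was as high as the highest CSD mouse and CSD 2 was as low as HC 4, while HC 6 lay below all other mice. The SD between mice was 0.117 in HC and 0.0701 in CSD, around group means of -0.043 and 0.043. All genes of the same range, the collagen genes among them, had a median deviation of 0.14 on HC 2 and between -0.05 and 0.05 on the other arrays. Their median log2 fold change was -0.0025. Of the 9758 genes in that range 48.5% had a higher mean in CSD, and 1.84% were higher at an unadjusted p under 0.05. On HC 6 the collagen mean was -0.23 and the median of the same range -0.05. Over the 12 arrays the collagen mean and the median of the same range had a Pearson r of 0.69 and a Spearman rho of 0.853. Without CSD 9 and HC 2, the arrays whose range median was farthest from the middle, the r was 0.85. Whether these array-wide shifts have a part in the collagen difference was not tested beyond the normalizations reported in the closing section.

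**Figure D4:**
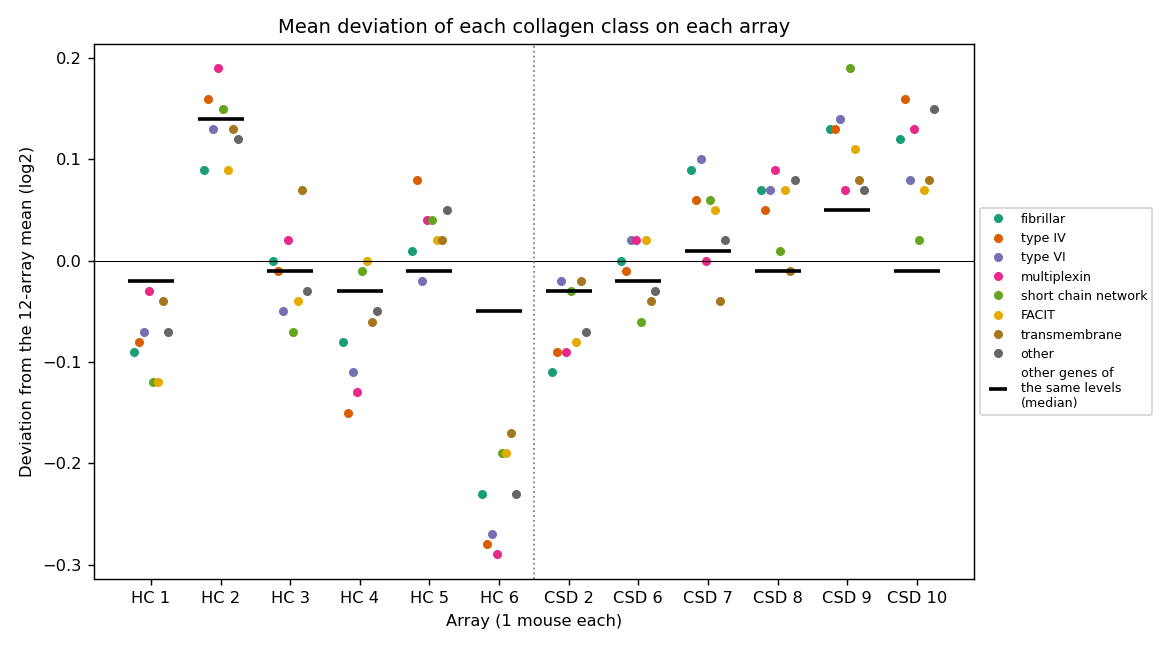
Mean deviation of each of the 8 collagen classes from its 12-array mean (y axis, log2) on each array (x axis), with black bars for the median of all genes of the same range. The legend calls these other genes, but the collagen genes are among them. All classes lie above 0 on HC 2 and below 0 on HC 6, and on CSD 8, CSD 9 and CSD 10 all classes lie at or above the bar.

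Chains of the same protein were compared over the 12 arrays, and with 4 further relations this made 8 relations tested by permutation. Col4a1 and Col4a2 had a Pearson r of 0.892 (permutation p of 2.1e-04, adjusted over the 8 relations 0.00168) and a Spearman rho of 0.86 (permutation p of 7.1e-04, adjusted 0.00568). Without the 2 arrays farthest from the median of Col4a1 (HC 4 and HC 6) the r was 0.83. Col5a1 and Col5a2 had an r of 0.832 (permutation p of 6.5e-04, adjusted 0.0026), a rho of 0.727 (permutation p of 0.00952, adjusted 0.0152), and an r of 0.76 without CSD 2 and HC 6. For Col6a1 and Col6a2 the r was 0.772 (permutation p of 0.0031, adjusted 0.00827), the rho was 0.825 (permutation p of 0.00176, adjusted 0.00704), and the r was 0.811 without CSD 7 and CSD 9. For Col1a1 and Col1a2 the r was 0.723 (permutation p of 0.00833, adjusted 0.0112), the rho was 0.727 (permutation p of 0.00951, adjusted 0.0152), and the r was 0.829 without CSD 9 and HC 6. Pairs of different classes, which are not partners, had a median r of 0.755.

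Col1a2 and Col3a1, both of vessel walls and meninges, had an r of 0.534 (permutation p of 0.0737, adjusted 0.0842), a rho of 0.706 (permutation p of 0.0129, adjusted 0.0172), and an r of 0.526 without CSD 7 and HC 4. Col1a2 and Col4a1 had an r of 0.72 (permutation p of 0.0084, adjusted 0.0112), a rho of 0.566 (permutation p of 0.0586, adjusted 0.067), and an r of 0.712 without the same arrays. Within groups the relation of Col4a1 and Col4a2 was 0.804 in HC and 0.944 in CSD, and that of Col6a1 and Col6a2 was 0.859 in HC and 0.365 in CSD. Other neighbouring genes had similar r values. The r was 0.792 for Col4a5 and Col4a6, with 1274 bases between them, and 0.849 for Col3a1 and Col5a2, with 24624 bases between them. Col4a3 and Col4a4, which overlap by 114 bases, had an r of 0.818.

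The cells that make these collagens were read from their markers. For comparison, 10090 of all 17656 measured genes had a lower mean in CSD, and 6.52% were lower at an unadjusted p under 0.05. Fibroblasts of the meninges and around vessels make fibrillar and type VI collagen, and endothelial cells and pericytes make type IV collagen. Of 14 fibroblast markers 10 had a lower mean in CSD and 0 passed an unadjusted p of 0.05 in either direction, with a median log2 fold change of -0.0061. Their mean level ran from 7.35 to 8.03 in HC and from 7.42 to 8.20 in CSD. This list is not separate from others used below. Pdgfra is also among the markers of oligodendrocyte precursors, and Dcn, Lum, Ogn and Fmod are also among the small leucine-rich proteoglycans. The fibroblast proteoglycan Dcn ran from 8.15 to 8.96 in HC and from 8.18 to 9.38 in CSD, and Lum was at the noise level on every CSD array and at most 5.81 in HC. Slc13a3, a carboxylate transporter, and Mgp, an inhibitor of vessel calcification, had log2 fold changes of -0.19 (SE 0.13) and 0.25 (SE 0.23). Of 12 endothelial markers 10 had a lower mean in CSD, 2 of them at an unadjusted p under 0.05, with a median of -0.06. These were the angiopoietin receptor Tek at -0.21 (unadjusted limma p of 0.00424, adjusted 0.313) and the sialomucin Emcn at -0.21 (unadjusted limma p of 0.0127, adjusted 0.437). The mean level of the endothelial markers ran from 8.71 to 8.97 in HC and from 8.61 to 8.90 in CSD. Of 12 markers of pericytes and smooth muscle 6 had a lower mean and 0 passed an unadjusted p of 0.05, with a median of 0.00067 and mean levels from 7.65 to 7.95 in HC and from 7.62 to 7.90 in CSD. Myh11, the smooth muscle myosin, had a log2 fold change of 0.11 (SE 0.055), and the pericyte peptidase Anpep one of -0.16 (SE 0.12).

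Across mice, Col1a2 and the mean of the fibroblast markers had an r of 0.723 (permutation p of 0.00789, adjusted 0.0112) and a rho of 0.804 (permutation p of 0.0027, adjusted 0.0072). The r was 0.933 in HC, 0.713 in CSD and 0.798 for deviations from the group means. It was 0.473 without CSD 7 and HC 4, where the fibroblast mean deviated by 0.50 and -0.35. No other collagen was tested against the fibroblast mean, so this r holds for Col1a2 alone. On HC 6, where the fibroblast mean deviated by 0.18, Col1a1 (7.97) and Col3a1 (7.32) had their lowest values. Col4a1 and the mean of the endothelial markers had an r of -0.156 (permutation p of 0.626, adjusted 0.626) and a rho of -0.21 (permutation p of 0.513, adjusted 0.513), and the r was -0.0576 without HC 4 and HC 6.

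Other cell types were read from their markers in the same way, beside the same shares (10090 of 17656 genes with a lower mean, 6.52% lower at an unadjusted p under 0.05). All 13 oligodendrocyte markers had a lower mean in CSD and an unadjusted p under 0.05, with a median log2 fold change of -0.58. Their mean level ran from 9.72 to 10.31 in HC and from 9.17 to 9.69 in CSD, with no overlap. Mog, a myelin surface protein, and Gjc3, a gap junction protein, had log2 fold changes of -0.84 (adjusted limma p of 0.0986) and -0.68 (adjusted limma p of 0.0673). Of 9 markers of oligodendrocyte precursors 5 had a lower mean, with 3 at an unadjusted p under 0.05 (among them Lhfpl3 at -0.13 and Sox6 at -0.093), and the median was -0.0014. Astrocytes had 8 of 9 markers lower, 1 of them (the water channel Aqp4, at -0.18) at an unadjusted p under 0.05, and a median of -0.063, with Slc4a4 at -0.11. For microglia 7 of 7 were lower, 2 of them (P2ry12 at -0.14 and C1qc at -0.13) at an unadjusted p under 0.05, and the median was -0.058. Excitatory neurons had 6 of 8 markers lower (Rorb at -0.086, Fezf2 at -0.053) and inhibitory neurons 6 of 7 (Sst at -0.063, Pvalb at -0.13), with 0 at an unadjusted p under 0.05 and medians of -0.038 and -0.063. The only measured marker of red blood cells, Alas2, had a log2 fold change of 0.14 (SE 0.11). The part of these differences in the collagen result was not tested.

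**Figure D5:**
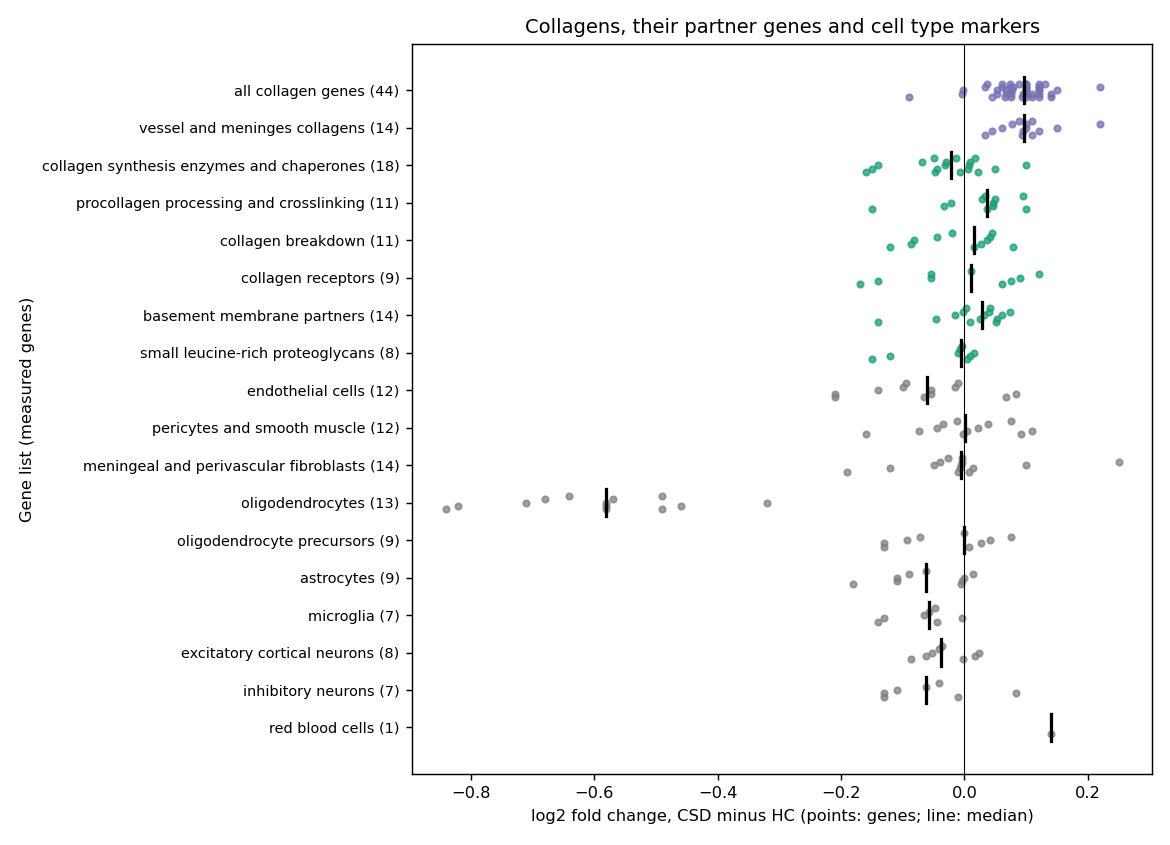
Log2 fold change (x axis, CSD minus HC) of each measured gene in the collagen lists (purple), the lists of collagen partners (green) and the marker lists (gray), with the number of genes in brackets and a black line at the median. The collagen genes sit around 0.095, the partner lists around 0, and the oligodendrocyte markers around -0.58.

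The genes that make, trim, bind and break down collagen had medians between -0.022 and 0.037 by list. Among all measured genes, 10090 of 17656 had a lower mean in CSD, with 6.52% lower and 1.89% higher at an unadjusted p under 0.05. The counts of these lists are to be read beside those shares. Of 18 enzymes and chaperones of collagen synthesis 11 had a lower mean in CSD, 3 of them at an unadjusted p under 0.05 and 1 of the higher ones, and the median log2 fold change was -0.022. Plod1 and Plod3, which hydroxylate the lysines of collagen, had log2 fold changes of -0.16 (SE 0.043, unadjusted limma p of 0.00309, adjusted 0.302) and -0.14 (SE 0.049, unadjusted limma p of 0.0164, adjusted 0.457). Plod1 lay at 8.47, 8.62 and 8.71 in HC (lowest, median and highest) and at 8.41, 8.42 and 8.51 in CSD, so that all 6 CSD arrays were below the HC median. The other 2 genes were P3h4 at -0.15 and P3h3 at 0.10, members of the prolyl 3-hydroxylase family, which were named after their values were seen. Serpinh1, the collagen chaperone of the endoplasmic reticulum and likewise named after its values were seen, had a log2 fold change of -0.047 (SE 0.06).

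Of 11 genes of procollagen processing and crosslinking 3 had a lower mean, 1 of them at an unadjusted p under 0.05, and the median was 0.037. That gene was Pcolce2, an enhancer of procollagen trimming, at -0.15 (SE 0.066, adjusted limma p of 0.555), while the trimming protease Bmp1 had a log2 fold change of 0.095 (SE 0.056). Of 11 genes of collagen breakdown 5 had a lower mean, 0 passed an unadjusted p of 0.05 in either direction, and the median was 0.016. The collagen-cleaving cathepsin Ctsk was at -0.12 (SE 0.06) and the collagen uptake receptor Mrc2 at 0.078 (SE 0.06). Of 14 basement membrane partners 4 had a lower mean, 0 passed in either direction, and the median was 0.029. The laminin chains Lama2 and Lama3 were at -0.14 (SE 0.07) and 0.073 (SE 0.047). Of 8 small leucine-rich proteoglycans, which coat collagen fibrils, 5 had a lower mean, with Prelp at -0.15 (unadjusted limma p of 0.0451, adjusted 0.576) and Fmod at -0.12 (SE 0.20), and the median was -0.005.

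Of 9 collagen receptors 4 had a lower mean, 2 of them at an unadjusted p under 0.05, and the median was 0.01. Ddr1, a receptor tyrosine kinase that binds fibrillar and type IV collagen and is found in the brain mostly in oligodendrocytes, lay at 9.01, 9.10 and 9.21 in HC (lowest, median and highest) and at 8.86, 8.95 and 9.03 in CSD. All CSD arrays were below the HC median, and the groups overlapped narrowly. The log2 fold change was -0.17 (SE 0.042), with an unadjusted limma p of 0.00163, an adjusted p of 0.235 and an exact permutation p of 0.00433. Lair1, an inhibitory collagen receptor of immune cells, was at -0.14 (SE 0.06, unadjusted limma p of 0.0341, adjusted 0.546).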

How the data were processed

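The authors deposited 1 table of log2 values for 12 arrays. The submitters' processing notes name RMA and the Affymetrix Expression Console without versions. RMA corrects for background, equalizes the distributions of the arrays and combines the probes of each set into 1 value. The deposited values were not fully equalized, with array medians from 7.50 on HC 6 to 7.69 on HC 2, and the reason was not tested. An array has no read depth, and the number of arrays limits the precision. No source used here gave scan dates. The methods drop probe sets with no value over a system noise level and raise lower values to it, without stating the level, and here it was set at 5.75, the 20th percentile over the table. Of 35556 probe sets 29838 had a value above it and stayed in, with 4.67% of their values set to it. Groups were compared with limma 3.58.1 (R 4.3.3, lmFit then eBayes, without covariate, two-sided, Benjamini-Hochberg over all probe sets kept), and a call needed an adjusted p below 0.05 with a fold of 1.2 or more. The scripts were tested on simulated data. The exact permutation test used all 924 splits of 12 arrays into 6 and 6 (smallest p 0.00216), and relations used 100000 permutations in Python 3.11.15.

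The platform annotation of 2016 names 1 gene for 21789 probe sets, several for 1621 and none for 12146. Of 46 collagen probe sets naming 1 gene 45 were kept, 1 of Col6a5 not being above noise, and 0 name a collagen among several genes. Named genes are the 14 vessel and meninges collagens, other collagens with an unadjusted p under 0.05, the 2 of each other class and the 2 of each list with the smallest p. The members and the 6 partner and 10 marker lists were chosen with earlier results of these data known. Alternatives covered the test, floor, filter, normalization, spread, probe sets, replicate number and left-out arrays.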

Additional observations from a re-analysis of the deposited data

Results flagged for a closer look

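Over the 44 collagen genes in 2 groups, 88 groups of 6 arrays were searched for an array whose gap to its neighbour took up an unusual part of the group's range. Chance gives about 1 in 20, and 6 were found. On CSD 2 the lowest value stood apart for Col4a3 (6.92), Col18a1 (7.48), Col22a1 (7.38) and Col17a1 (7.32), with gaps of 0.685, 0.755, 0.714 and 0.701 of the range. On HC 6 the lowest value stood apart for Col11a2 (7.40, gap 0.694 of the range), and on HC 2 the highest for Col6a2 (8.36, gap 0.667 of the range). CSD 2 had a collagen mean deviation of -0.07 and a fibroblast marker deviation of -0.28, and HC 6 had -0.23 and 0.18.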

How the results depend on the processing

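The median log2 fold change of the collagen genes stayed above 0 under every alternative run, between 0.053 (without HC 6) and 0.12 with single arrays left out, and at 0.081 with arrays centred on their medians or quantile normalized. The count at an unadjusted p under 0.05 was 3 (1.89% of all measured genes were higher at that p), and from 1 to 17 with single arrays left out. It was 9 with array weights (4.53% of all genes) and 9 with cyclic loess normalization (3.73%), which was chosen after seeing the data. Without HC 2 and HC 6 it was 7 (5.11%), and with a fold limit of 1.2 it was 0. Lower means numbered 3, from 1 to 5 with single arrays left out, 1 with array weights and 1 without HC 2 and HC 6. In the last 2 settings 52.2% and 58.5% of all measured genes had a higher mean in CSD, against 42.9% in the main fit. Called probe sets numbered 0, but 1 with quantile normalization, 14 under robust estimation with a mean-variance trend, and 21 among probe sets with 1 gene, and the cause was not tested. Col13a1 ran from -0.021 (without HC 6) to 0.079 (without HC 2), and was -0.0045 without CSD 9.

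Only the numbers 2 and 6 occur in both groups, same-numbered arrays had deviation correlations of -0.21 and -0.0355, and the samples share only a number. The fit with the replicate number as a block, which leaves 4 arrays informative, gave 0 collagen genes at an unadjusted p under 0.05, 16 with a lower mean and a median of 0.022, while the median over all measured genes was -0.078 and 21.5% of them had a higher mean (0.095, -0.01 and 42.9% without the block). In it Col13a1 (-0.0061), Col15a1 (-0.013), Col1a1 (-0.02), Col1a2 (-0.14), Col28a1 (-0.0058), Col4a1 (-0.0055), Col4a2 (-0.062), Col5a1 (-0.11) and Col8a1 (-0.085) reversed. Over the 23 named collagens, alternatives left 516 of 552 values on the same side of the unadjusted threshold, 11 of them with the direction reversed, while 20 came newly under it and 16 were no longer under it.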
